A study of Mus musculus with 4 samples.

Results

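The transcription factors that set and maintain lens fate were examined in the S100A4-/- mouse lens. The 10 genes are *Pax6*, *Prox1*, *Sox1*, *Hsf4*, *Maf*, *Mafg*, *Mafk*, *Foxe3*, *Pitx3* and *Six3*, chosen by name, and all 10 were found among the 14924 genes of the normalized expression table. RNA-seq was carried out on whole lenses of P30 (1-month-old) mice on a C57BL/6J background, with 2 libraries from S100A4 null (S100A4-/-) mice, which lack the small calcium-binding protein S100A4, and 2 from wild type (WT) littermates. Each library was made from 6 to 12 pooled lenses, so that p-values below measure the spread between pools and not between animals. The null allele is constitutive and not confined to the lens, and a whole lens holds both its anterior epithelium and its fiber mass. Reads assigned to genes numbered 81602367 and 74108017 in S100A4-/- and 70253985 and 68038158 in WT.

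The labels were first checked against the deleted gene. *S100a4* (chr3:90603771-90606045, GRCm38) had normalized values, which are read counts divided by the size factor of the library, of 14.6 and 18.2 in S100A4-/- and of 14420 and 14385 in WT. Its neighbor *S100a5* (chr3:90608523-90611780), which encodes another S100 protein, had 2248 and 2462 in S100A4-/- and 8.35 and 8.76 in WT. All 4 libraries were dominated by lens RNA, the 10 most abundant genes taking 60.1% to 61.7% of the reads, and the crystallin *Cryaa* and the fiber cytoskeleton gene *Bfsp1* were the most abundant members of the crystallin and fiber lists in this tissue.

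Lens identity is built in steps. *Pax6* and *Six3* act in the surface ectoderm that becomes the lens, and *Pax6* is required for the placode to form. *Foxe3* and *Pitx3* act in the lens vesicle and epithelium, where *Foxe3* keeps epithelial cells dividing and alive. *Maf* (c-Maf), *Prox1* and *Sox1* then drive fiber cell elongation and crystallin transcription, and *Hsf4* directs late fiber maturation, including removal of nuclei. *Mafg* and *Mafk* are small Maf proteins, which lack an activation domain and bind DNA as homodimers or with CNC family partners.

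None of the 10 lens fate factors passed the test between S100A4-/- and WT lenses. With limma on log2(value + 1), 0 of 10 passed a Benjamini-Hochberg adjusted p of 0.05 at any fold, against 6.96% of the 14780 genes tested, and 0 of 10 passed with at least a 2-fold change, against 3.72% (3.65% higher and 0.0744% lower). DESeq2 and edgeR on the recovered reads also called 0 of 10, and 1 of 10, *Prox1*, had an unadjusted p under 0.05 in limma, as did 2611 of the 14780 genes. The log2 fold changes of the 10 genes ran from -0.12 to 0.07, and the 95% intervals together spanned 0.870-fold to 1.20-fold. Their median log2 fold change was -0.02, and that of all genes tested was -0.005. The median absolute log2 fold change was 0.046 for the 10 genes and 0.12 for all genes tested. These factors were counted with 359 to 41921 reads per library, and the largest gap between replicates was 0.19 on the log2 scale, for *Mafk* in WT.

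**Figure D1:**
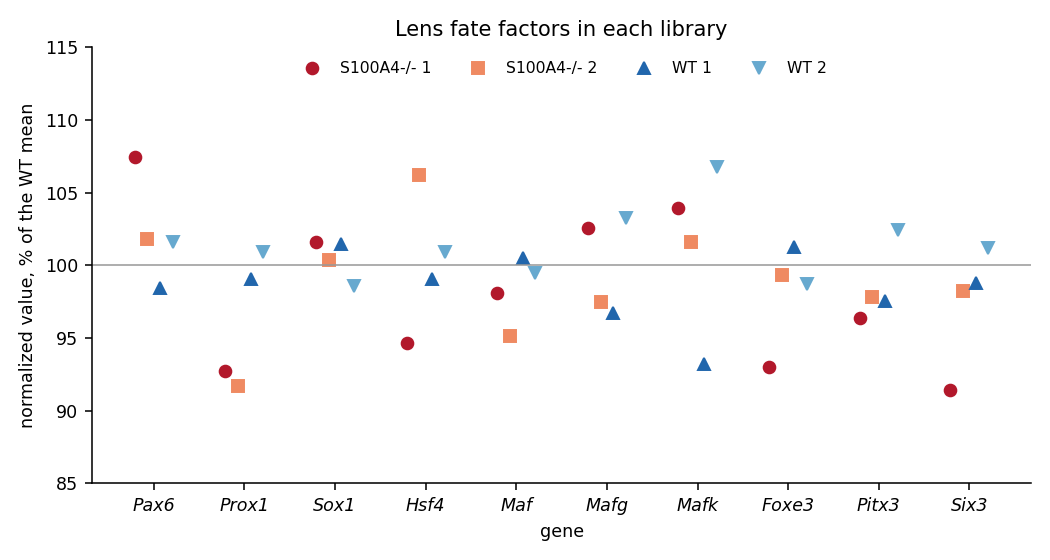
Normalized value of each lens fate factor in the 4 libraries, as a percentage of that gene's WT mean (y axis, which does not start at zero); circles and squares are the S100A4-/- libraries and triangles the WT libraries. *Prox1* shows both S100A4-/- libraries below both WT libraries.

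Among the factors of the early placode and epithelium, *Pax6* (ENSMUSG00000027168, chr2:105668900-105697364, plus strand) had normalized values of 5905 and 5598 in S100A4-/- and of 5410 and 5583 in WT. Both S100A4-/- values were above both WT values, the lower of them by less than the gap between the replicates of either group. The log2 fold change was 0.07 (95% interval -0.03 to 0.16, limma adjusted p = 0.536). *Six3* (ENSMUSG00000038805, chr17:85613608-85629302, plus strand), a homeodomain repressor of the sine oculis family, had 2830 and 3041 against 3059 and 3133 in WT. Both S100A4-/- values were lower, but the higher of them was closer to WT than to its own replicate. The log2 fold change was -0.08 (95% interval -0.19 to 0.04, limma adjusted p = 0.512).

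*Foxe3* (ENSMUSG00000044518, chr4:114925147-114926013, minus strand), the forkhead factor of the lens epithelium, had normalized values of 4810 and 5136 in S100A4-/- and of 5237 and 5104 in WT. The first S100A4-/- library was the lowest and the second lay between the WT libraries. The log2 fold change was -0.06 (95% interval -0.16 to 0.04, limma adjusted p = 0.615). *Pitx3* (ENSMUSG00000025229, chr19:46135685-46148326, minus strand), a homeodomain factor whose loss causes the aphakia mutant, had 3951 and 4010 against 3999 and 4200 in WT. The groups overlapped, and the log2 fold change was -0.04 (95% interval -0.15 to 0.06, limma adjusted p = 0.746).

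Of the fiber factors, *Maf* (ENSMUSG00000055435, chr8:115682942-115707794, minus strand), which activates crystallin promoters, was read most often. Its normalized values were 35899 and 34813 in S100A4-/- against 36773 and 36398 in WT. Both S100A4-/- values were lower, with a log2 fold change of -0.05 (95% interval -0.13 to 0.03, limma adjusted p = 0.577). *Prox1* (ENSMUSG00000010175, chr1:190118035-190170714, minus strand), a homeodomain factor needed for fiber elongation, had 19000 and 18797 against 20307 and 20684 in WT. The S100A4-/- libraries were both below the WT libraries, and the gap between groups was wider than the gaps between replicates. The difference in means was -7.79% of the WT level, with a log2 fold change of -0.12 (95% interval -0.20 to -0.03), which did not pass after adjustment (limma adjusted p = 0.0861).

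*Sox1* (ENSMUSG00000096014, chr8:12395295-12400126, plus strand), an HMG box factor that acts on gamma-crystallin genes, had normalized values of 7880 and 7782 in S100A4-/- and of 7866 and 7641 in WT. The groups overlapped, with a log2 fold change of 0.01 (95% interval -0.08 to 0.11, limma adjusted p = 0.917). *Hsf4* (ENSMUSG00000033249, chr8:105269801-105275845, plus strand), the heat shock factor of lens fibers, had 14264 and 16015 against 14938 and 15211 in WT. The S100A4-/- libraries were the lowest and the highest of the 4, and both WT libraries lay between them. The log2 fold change was 0.00 (95% interval -0.09 to 0.10, limma adjusted p = 0.981).

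Of the small Maf genes, *Mafg* (ENSMUSG00000051510, chr11:120625117-120633600, minus strand) had normalized values of 3222 and 3061 in S100A4-/- and of 3038 and 3243 in WT. The groups overlapped and the log2 fold change was 0.00 (95% interval -0.11 to 0.11, limma adjusted p = 0.997). *Mafk* (ENSMUSG00000018143, chr5:139791513-139802653, plus strand), the least abundant of the 10, had 418 and 408 against 375 and 429 in WT. The WT libraries were the lowest and the highest, and with 359 to 488 reads per library the interval was the widest of the 10 genes, a log2 fold change of 0.04 (95% interval -0.17 to 0.26, limma adjusted p = 0.891).

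Over the 10 genes, the groups did not overlap in 4, with the S100A4-/- libraries above in 1 (*Pax6*) and below in 3 (*Prox1*, *Maf* and *Six3*). Among all genes tested, the groups did not overlap in 46.9%, with the S100A4-/- libraries above in 23.7% and below in 23.2%. In bulk lens RNA, fewer cells of a type and less RNA per cell cannot be told apart.

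**Figure D2:**
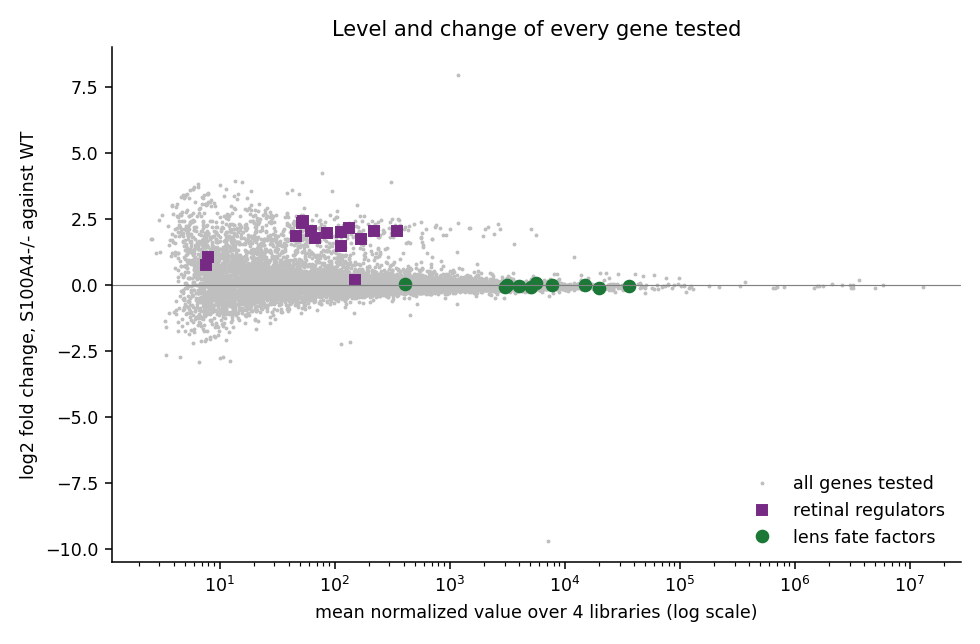
Log2 fold change of S100A4-/- against WT (y axis) against the mean normalized value over the 4 libraries (x axis, log scale) for every gene tested (grey), the 10 lens fate factors (green circles) and 15 retinal regulators (purple squares). The lens fate factors lie along the zero line at mean values from about the level of *Mafk* upward, and 12 of the 15 retinal regulators lie at log2 fold changes of 1.46 to 2.41.

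Levels were compared between genes per kb of merged exons. *Hsf4* was highest in WT at 8599 ± 110 per kb (SD, n = 2), above *Foxe3* at 5964 ± 109, *Maf* at 4439 ± 32.2, *Pitx3* at 2686 ± 93.1, *Prox1* at 2443 ± 31.8 and *Sox1* at 1605 ± 32.8. The lower levels per kb were those of *Six3* at 568 ± 9.5, *Mafg* at 560 ± 25.8, *Pax6* at 470.0 ± 10.5 and *Mafk* at 103 ± 9.85. *Six3* and *Mafg* were the only neighbors in this order whose WT libraries overlapped, and they alone changed places in the S100A4-/- means. *Hsf4* was at the 99.3 percentile of all genes per kb and *Mafk* at the 59.7 percentile. The order depends on gene length in the case of *Pax6*, which has 11694 bases of merged exons but 4427 in its longest transcript. Per kb of longest transcript its level was 1242, above *Six3* at 841 and *Mafg* at 638.

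**Figure D3:**
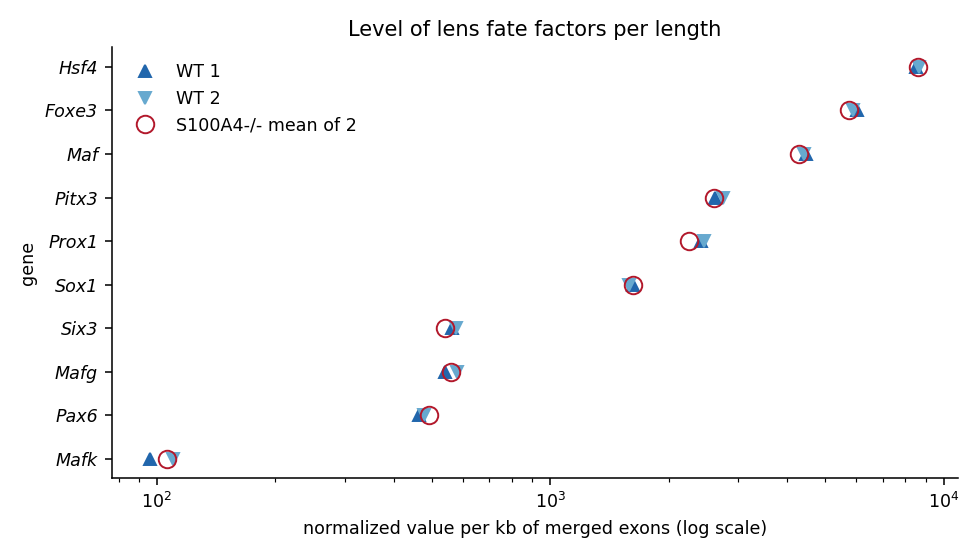
Normalized value per kb of merged exons (x axis, log scale) for the 10 lens fate factors, ordered by their WT mean; filled triangles are the WT libraries and open circles the mean of the 2 S100A4-/- libraries. Levels ran from 103 per kb for *Mafk* to 8599 per kb for *Hsf4*, and open circles sit on or beside the WT points.

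Several of these genes overlap another annotated gene, which matters because the kit was stranded but the strand setting of the counting is not stated. *Prox1os*, an antisense RNA sharing 133 exonic bases with *Prox1*, had normalized values of 5130 and 5457 in S100A4-/- and of 5776 and 5720 in WT. It was lower in both S100A4-/- libraries by about as much as *Prox1* itself, with a log2 fold change of -0.12 (limma adjusted p = 0.164). *Six3os1*, which shares 106 exonic bases with *Six3* on the other strand, had 4797 and 4544 against 4468 and 4787, and its groups overlapped (log2 fold change 0.01, limma adjusted p = 0.931). *Gm15655* at *Maf*, *Sirt7* at *Mafg*, *Elovl3* at *Pitx3* and *Pax6os1* at *Pax6* were between 15.7 and 189 in every library and did not pass the test.

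*Sox1ot* (chr8:12385771-12436768), a long noncoding RNA gene on the same strand whose span contains *Sox1* without sharing an exonic base, was picked for its overlap with *Sox1* and after its values were seen. It had normalized values of 7357 and 6893 in S100A4-/- and of 8625 and 8775 in WT. Both S100A4-/- values were below both WT values. *Sox1ot* fell with a log2 fold change of -0.29 ± 0.05 (SE, limma adjusted p = 2.06e-05), which was not called when the variance trend was left out (adjusted p = 0.261). The difference between the changes of *Sox1ot* and *Sox1* was not tested.

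The families of the lens fate factors hold relatives with roles in other tissues. Of 17 relatives listed, 12 were in the table, of which 2 rose, 0 fell and 10 did not pass (background 5.62% higher and 1.33% lower). Both genes that rose are known as retinal regulators. *Nrl*, a large Maf relative that directs rod fate, had normalized values of 601 and 516 in S100A4-/- and of 127 and 140 in WT. The groups were far apart, with a log2 fold change of 2.05 ± 0.13 (SE, limma adjusted p = 1.62e-15). *Six6*, a relative of *Six3* that acts in the neural retina, had 83.9 and 95.3 against 16.7 and 15.3. Its groups did not overlap either, with a log2 fold change of 2.41 ± 0.33 (SE, limma adjusted p = 6.80e-07). Both calls held in each alternative analysis run. The summed value of rod markers, genes the study had also listed as higher in these libraries, was 3.82 times as high in the same S100A4-/- libraries, and its part in these values was not tested. The difference of these changes from those of *Maf* and *Six3* was not tested, but their 95% intervals, 1.79 to 2.31 for *Nrl* and 1.75 to 3.07 for *Six6*, lay above those of all 10 lens fate factors.

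The lens factor was nevertheless the more abundant of each pair. Per kb of merged exons, *Maf* exceeded *Nrl* 41.2-fold and 46.6-fold in the S100A4-/- libraries and 199-fold and 179-fold in the WT libraries. *Six3* exceeded *Six6* 24.8-fold and 23.5-fold in the S100A4-/- libraries and 135-fold and 150-fold in the WT libraries. The most abundant relative, *Sox2*, an HMG box factor of the lens placode, had normalized values of 2407 and 2328 against 2442 and 2402 in WT (log2 fold change -0.03, limma adjusted p = 0.833). *Maff*, the remaining small Maf gene, named after its values were seen, had 116 and 129 against 79.4 and 84.3. Its groups did not overlap, and the log2 fold change of 0.58 did not pass (limma adjusted p = 0.0827).

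**Figure D4:**
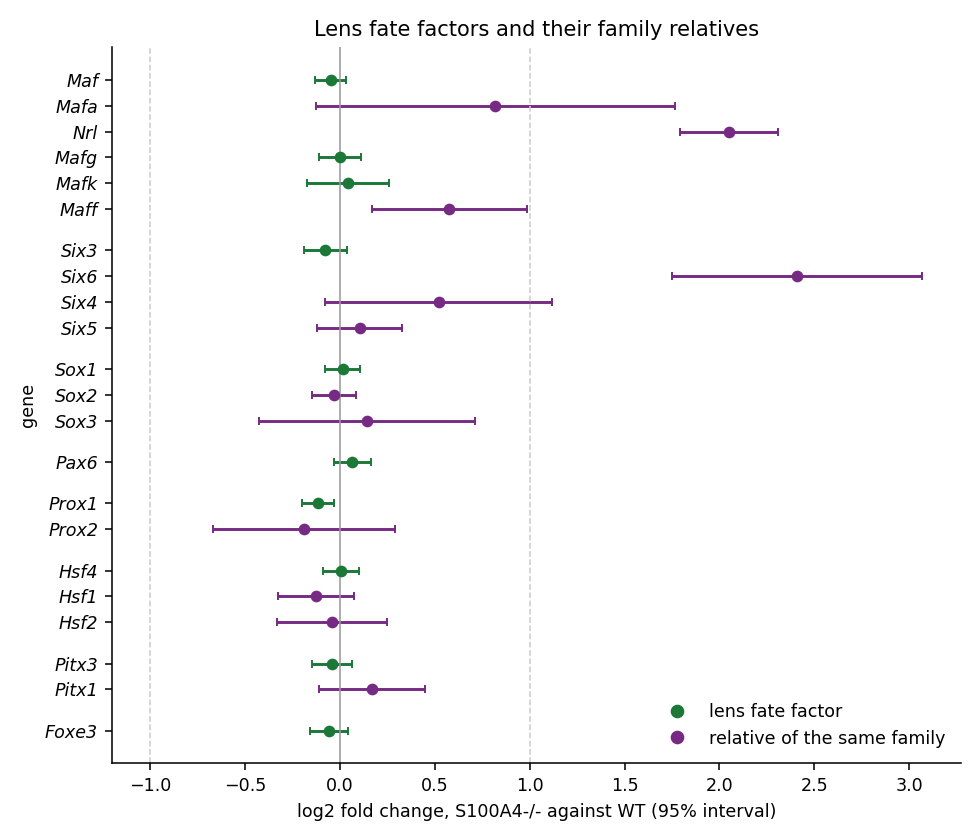
Log2 fold change of S100A4-/- against WT with its 95% interval (x axis) for the 10 lens fate factors (green) and the 12 relatives in the table (purple), grouped by family; dashed lines mark a 2-fold change. The green points lie within 0.12 of zero, and *Nrl* (2.05) and *Six6* (2.41) are the relatives whose intervals lie wholly above the 2-fold line.

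Regulators that work beside these factors in the lens were described next. Of 24 listed regulators of lens development, 23 were in the table, of which 1 rose, 0 fell and 22 did not pass, beside 5.62% of all genes tested called higher and 1.33% lower, with a median log2 fold change of -0.02. *Smarca4*, the chromatin remodeling ATPase Brg1, had normalized values of 3296 and 3231 in S100A4-/- and of 3357 and 3457 in WT (log2 fold change -0.06, limma adjusted p = 0.605). *Mab21l1* had 3306 and 3239 against 3359 and 3388 (log2 fold change -0.04, limma adjusted p = 0.741). The gene that rose was *Tfap2b*, an AP-2 factor also expressed in amacrine cells of the retina, at 48.8 and 41.6 against 2.09 and 10.9. Its log2 fold change was 2.92 ± 0.55 (SE, limma adjusted p = 0.00026), a size that rested on the WT library left in, at 1.95 without WT replicate 1 and 3.90 without WT replicate 2. It was not called without S100A4-/- replicate 1 (adjusted p = 0.189), without S100A4-/- replicate 2 (adjusted p = 0.139) or without the variance trend (adjusted p = 0.27).

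Maf factors bind a recognition element of which the 6 letters TGCTGA, here called the core, are only a part. Crystallin promoters are their best known lens targets. The RefSeq sequence of the 250 bases before the annotated start (GRCm38.p6) was searched for TGCTGA or its reverse complement TCAGCA. The core was found in 10 of 15 crystallin windows (66.7%), 1 of 10 windows of the lens fate factors (10%, that of *Mafk*), 4 of 20 windows of the retinal regulators (20%) and 16.1% of all 32851 windows. Windows were found for 8 of the 10 lens fate factors, and *Hsf4* and *Maf* had none. A match is a description of these letters and not of a bound site. Of the 15 crystallin windows, 8 reach into an exon that GENCODE M21 gives the same gene and 7 do not. The windows that hold the core and no such exonic base are those of 4 beta crystallins, and they are shown because beta crystallins are among the genes whose output these factors are known to set. They run 5′ to 3′ on the strand of the gene, with the core in capitals on either strand. In *Cryba1* (chr11:77725294-77725543, minus strand) the core starts 57 bases before the RefSeq start. In *Cryba2* (chr1:74893144-74893393, minus strand) the core starts 149 bases before the RefSeq start. In *Cryba4* (chr5:112252519-112252768, minus strand) the core starts 182, 135 and 77 bases before the RefSeq start. In *Crybb3* (chr5:113081585-113081834, minus strand) the core starts 67 bases before the RefSeq start.
Cryba1: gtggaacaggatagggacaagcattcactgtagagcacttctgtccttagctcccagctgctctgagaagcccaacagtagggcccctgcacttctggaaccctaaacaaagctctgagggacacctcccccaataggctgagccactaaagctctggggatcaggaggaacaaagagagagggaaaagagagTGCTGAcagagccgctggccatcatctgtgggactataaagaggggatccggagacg
Cryba2: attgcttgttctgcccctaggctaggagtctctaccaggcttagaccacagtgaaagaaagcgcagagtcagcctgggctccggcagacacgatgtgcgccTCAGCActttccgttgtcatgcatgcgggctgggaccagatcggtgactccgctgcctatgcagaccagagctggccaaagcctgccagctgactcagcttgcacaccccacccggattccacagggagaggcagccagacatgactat
Cryba4: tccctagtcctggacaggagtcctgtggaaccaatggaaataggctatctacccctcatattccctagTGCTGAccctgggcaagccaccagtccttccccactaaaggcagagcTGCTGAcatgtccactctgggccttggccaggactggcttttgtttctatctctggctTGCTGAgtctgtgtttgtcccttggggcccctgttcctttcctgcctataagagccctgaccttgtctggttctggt
Crybb3: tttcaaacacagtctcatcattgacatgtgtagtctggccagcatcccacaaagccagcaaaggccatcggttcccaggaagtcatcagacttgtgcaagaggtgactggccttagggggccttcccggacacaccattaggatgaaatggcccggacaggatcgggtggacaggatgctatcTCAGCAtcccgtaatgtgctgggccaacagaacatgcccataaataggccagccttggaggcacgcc

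The crystallin genes themselves did not pass the test in limma. Of 16 tested, 0 rose and 0 fell, against 6.96% of all genes called, 1 had an unadjusted p under 0.05, and the log2 fold changes ran from -0.11 to 0.11 with a median of -0.04. DESeq2 called 0, and edgeR, like limma after quantile normalization, called 1, *Crygs*, lower. *Cryaa*, the most abundant, had normalized values of 11948800 and 13289400 in S100A4-/- and of 13062900 and 13333400 in WT. The groups overlapped, with a log2 fold change of -0.07 (limma adjusted p = 0.714). *Crybb2*, the next most abundant, had 5850030 and 5821390 against 5929850 and 5753520, a log2 fold change of -0.0013 (limma adjusted p = 0.995). The gene with the unadjusted p under 0.05 was *Cryga*, named after its values were seen, with 370765 and 401927 against 360673 and 356069. It was higher in both S100A4-/- libraries and did not pass (log2 fold change 0.11, limma unadjusted p = 0.0244, adjusted p = 0.188). *Cryba1* had 4592000 and 4967300 against 5082750 and 5132210, with both S100A4-/- values lower and a log2 fold change of -0.10 (limma adjusted p = 0.455). *Crygs*, named after its values were seen, had 2931350 and 3048420 against 3288870 and 3168600, again lower in both S100A4-/- libraries, with a log2 fold change of -0.11 (limma adjusted p = 0.32).

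Of 18 fiber differentiation genes, which include targets of *Hsf4*, *Maf* and *Prox1*, 0 rose, 2 fell and 16 did not pass, beside 1.33% of all genes called lower, with a median log2 fold change of -0.05. In limma 5 of the 18 had an unadjusted p under 0.05, all lower, as did 2611 of the 14780 genes tested in either direction. Both S100A4-/- libraries were below both WT libraries in 10 of the 18 and above in 2, against 23.2% and 23.7% of all genes tested. *Grifin*, a galectin-related lens protein, had normalized values of 103287 and 103497 in S100A4-/- and of 125413 and 121830 in WT. The groups were well separated, and *Grifin* fell by 0.26 on the log2 scale (SE 0.04, limma adjusted p = 1.24e-05), a call absent only without the variance trend among the alternatives run (adjusted p = 0.259). *Hspb1*, a small heat shock protein, had 23034 and 27053 against 28312 and 27792, and fell by 0.17 (limma adjusted p = 0.0254). The first S100A4-/- library set that value, since without it the log2 fold change was -0.05. *Hspb1* was not called by edgeR (adjusted p = 0.0529) or DESeq2 (adjusted p = 0.753). Nor was it called with equal totals (adjusted p = 0.133), after quantile normalization (adjusted p = 0.0621) or without the variance trend (adjusted p = 0.61). The abundant fiber genes *Bfsp1*, of the beaded filament, and *Mip*, the fiber water channel, had log2 fold changes of -0.06 (adjusted p = 0.538) and -0.12 (adjusted p = 0.124).

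Of 5 markers of the lens epithelium, 0 rose, 1 fell (1.33% of all genes were called lower) and 4 did not pass. All 5 had an unadjusted p under 0.05 in limma, 3 of them lower and 2 higher, as did 2611 of the 14780 genes tested. *Aldh1a1*, a retinaldehyde dehydrogenase, had normalized values of 15994 and 17598 in S100A4-/- and of 18794 and 18527 in WT. Both S100A4-/- values were lower, with a log2 fold change of -0.15 (limma adjusted p = 0.0255) that was not called by edgeR (adjusted p = 0.0565) or DESeq2 (adjusted p = 0.0777). Without S100A4-/- replicate 1 the log2 fold change was -0.08 (adjusted p = 0.374), and with equal totals, without the variance trend or without either WT library 0 of the 5 were called lower. *Gja1*, the epithelial gap junction gene, had 4965 and 4671 against 4228 and 4443 and did not pass (log2 fold change 0.15, adjusted p = 0.0688). After quantile normalization 1 marker was called higher, *Gja1*, and 1 lower, *Aldh1a1*.

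Small Maf proteins act through partners of the CNC and Bach families, which share the antioxidant response element. Of 7 such genes listed, *Keap1* included, 6 were in the table, of which 1 rose and 0 fell, beside 5.62% of all genes called higher and 1.33% lower. The partner most abundant in the lens, *Nfe2l1*, had normalized values of 7589 and 7349 in S100A4-/- and of 7470 and 7438 in WT, with a log2 fold change of 0.00 (limma adjusted p = 0.987). *Nfe2l3* rose from a low level, at 44.5 and 49.7 against 15.7 and 19.7, with a log2 fold change of 1.37 ± 0.38 (SE, limma adjusted p = 0.0157). It was not called by DESeq2 (adjusted p = 0.111), after quantile normalization (adjusted p = 0.0874), without the variance trend (adjusted p = 0.0724), without either S100A4-/- library (adjusted p = 0.207 and 0.252) or without WT replicate 1 (adjusted p = 0.0538), and it was not tested at a mean value of at least 50. Of 10 antioxidant response element targets, 1 rose and 0 fell, with the same share of all genes called higher. *Slc7a11*, the cystine transporter, had 2816 and 2436 against 2100 and 2086, with a log2 fold change of 0.32 ± 0.06 (SE, limma adjusted p = 0.000319), and 0.22 without S100A4-/- replicate 1 (adjusted p = 0.137), and it was not called without the variance trend either (adjusted p = 0.338). *Hmox1*, heme oxygenase 1, the most abundant of these targets, had 112271 and 122129 against 122190 and 128836 (log2 fold change -0.10, adjusted p = 0.204).

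Regulators of the retina, a tissue that shares *Pax6* and *Six3* with the lens, were set beside the lens fate factors. Of 15 genes, 12 rose at least 2-fold, 0 fell and 3 did not pass, with a median log2 fold change of 1.96 (all genes 3.65% at least 2-fold higher). Every gene that rose, *Nrl* and *Six6* included, is one the study had itself listed as higher in these libraries, and those that did not pass are not on that list. The count, the direction and the median therefore follow from that choice and are not independent evidence. Apart from *Nrl* and *Six6*, the genes with the largest changes were *Otx1* and *Rax*, homeodomain factors of the early eye. *Otx1* had normalized values of 90.8 and 81.1 in S100A4-/- and of 10.4 and 24.1 in WT (log2 fold change 2.36, limma adjusted p = 5.80e-06). *Rax* had 213 and 220 against 34.5 and 66.8 (log2 fold change 2.15, adjusted p = 2.94e-09). *Crx*, the photoreceptor homeodomain factor, had 351 and 355 against 109 and 65.7 (log2 fold change 2.05, adjusted p = 1.35e-11). *Crx* was not called without the variance trend (adjusted p = 0.109). With 1 library left out its log2 fold change ran from 1.69 to 2.41. In each of these genes both S100A4-/- libraries were above both WT libraries. The 3 that did not pass were *Thrb*, *Prdm1* and *Isl1*, named after their values were seen, and of these *Prdm1* and *Isl1* reached the value of 10 needed for testing in S100A4-/- libraries only. Per kb of merged exons, the highest S100A4-/- mean of the 12 genes that rose was 112, for *Crx*. That of *Mafk*, the lowest of the lens fate factors, was 106, and *Nrl* was at 98.2. In WT *Crx* was at 27.6 per kb and *Mafk* at 103. Without the variance trend, 5 of the 15 were called higher, beside 1.21% of all genes.

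Markers of other ocular cell types were counted in the same libraries. All 9 rod markers rose, and their summed normalized value was 9583 and 9512 in the S100A4-/- libraries against 2420 and 2574 in the WT libraries, a ratio of 3.82. Each of these rod genes is on the study's own list of genes higher in these libraries, so that this count and ratio follow from that choice. The most abundant was *Gnat1*, the rod transducin, at 3339 and 3327 against 736 and 782. In limma, 5 of 7 cone markers, 4 of 7 Müller glia markers, 6 of 8 amacrine and ganglion cell markers, 2 of 5 bipolar cell markers, 5 of 7 pigment cell markers, 3 of 4 ciliary epithelium markers, 1 of 5 endothelial markers and 3 of 5 macrophage markers rose, beside 5.62% of all genes called higher. Some of these genes are also among those the study named as higher. They include *Glul*, *Rlbp1* and *Slc1a3* of the Müller glia list and *Best2* and *Otx1* of the ciliary list. *Gnat2* of the cone list and *Slc6a9* of the amacrine and ganglion cell list are others. The counts and summed ratios of these lists therefore follow in part from that choice. *Otx1* is also counted among the retinal regulators. None of these lists had a gene that fell, although the bipolar cell marker *Cabp5* (186 and 215 against 242 and 245), named after its values were seen, and the pigment cell marker *Mitf* (659 and 617 against 723 and 693) were lower in both S100A4-/- libraries and did not pass.

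A gene was tested if it reached a value of 10 in at least 1 library, and some markers did so in S100A4-/- libraries only. These were *Gngt2* of the cone, *Gad2* of the amacrine and ganglion cell, *Mlana* of the pigment cell and *Kdr* of the endothelial list, which were called, and *Cd68* and *Adgre1* of the macrophage and both genes of the horizontal cell list, *Calb1* and *Onecut2*, which were not; those not covered by the naming rule were named after their values were seen. Of the markers that reached it in both groups, 4 of 6 cone, 5 of 7 amacrine and ganglion cell, 4 of 6 pigment cell, 0 of 4 endothelial and 3 of 3 macrophage markers rose. *Gad2* had 0 reads in WT replicate 1, and *Calb1* had 6 and 3 reads in the WT libraries. Of the 2 horizontal cell markers, 0 passed in limma, with 1 at an unadjusted p under 0.05 and 0 called by DESeq2 and by edgeR, and no ratio is given for them. The corneal marker *Krt12* had too few reads in all libraries to be tested, with 0 in WT replicate 2. The listed markers *Vsx1*, *Chat*, *Pou4f2*, *Lhx1*, *Onecut1*, *Best1*, *Krt5*, *Krt14*, *Emcn*, *Aif1* and *Ptprc* were not analysed here.

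Several of these counts moved with the processing. At a mean value of at least 50, 4.84% of the 11340 genes tested were called higher. With that filter 1 bipolar cell marker, 3 pigment cell markers and 1 macrophage marker were called. Of the cone markers, 0 were called after quantile normalization, by DESeq2 or without either S100A4-/- library. Without the variance trend, where 1.21% of all genes were called higher, the count was 1 for cone markers, 2 for Müller glia markers, 1 for amacrine and ganglion cell markers, 0 for bipolar cell markers, 3 for pigment cell markers and 0 for macrophage markers. DESeq2 and quantile normalization, with 3.86% and 4.14% of all genes called higher, each called 1 bipolar cell marker, and DESeq2 called 1 macrophage marker. Without S100A4-/- replicate 1 (1.47% of all genes called higher), 1 amacrine and ganglion cell marker, 1 bipolar cell marker, 2 pigment cell markers, 0 endothelial markers and 0 macrophage markers were called, and without S100A4-/- replicate 2 (1.88% of all genes) these counts were 1, 1, 3, 1 and 0.

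The ratio of summed values was 2.42 for cone markers, led by *Opn1sw*, 2.97 for Müller glia markers, led by *Apoe*, and 2.53 for amacrine and ganglion cell markers, led by *Slc6a9*. Without the leading gene these ratios were 2.43, 2.38 and 1.96. The ratio was 1.25 for bipolar cell markers, led by *Prkca*, and 1.98 for pigment cell markers, led by *Mitf*. Without *Mitf* the pigment cell ratio was 4.96, as the bipolar cell ratio was 1.62 without *Prkca*, which did not pass either. For ciliary epithelium markers, led by *Col9a1*, endothelial markers, led by *Kdr*, and macrophage markers, led by *Csf1r*, the ratio was 3.02, 2.39 and 3.08. Without the leading gene the ciliary ratio was 1.77, the endothelial ratio 1.65 and the macrophage ratio 3.76. The part of retinal or other ocular RNA in the higher values of *Nrl*, *Six6*, *Tfap2b* and the retinal regulators was not tested.

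**Figure D5:**
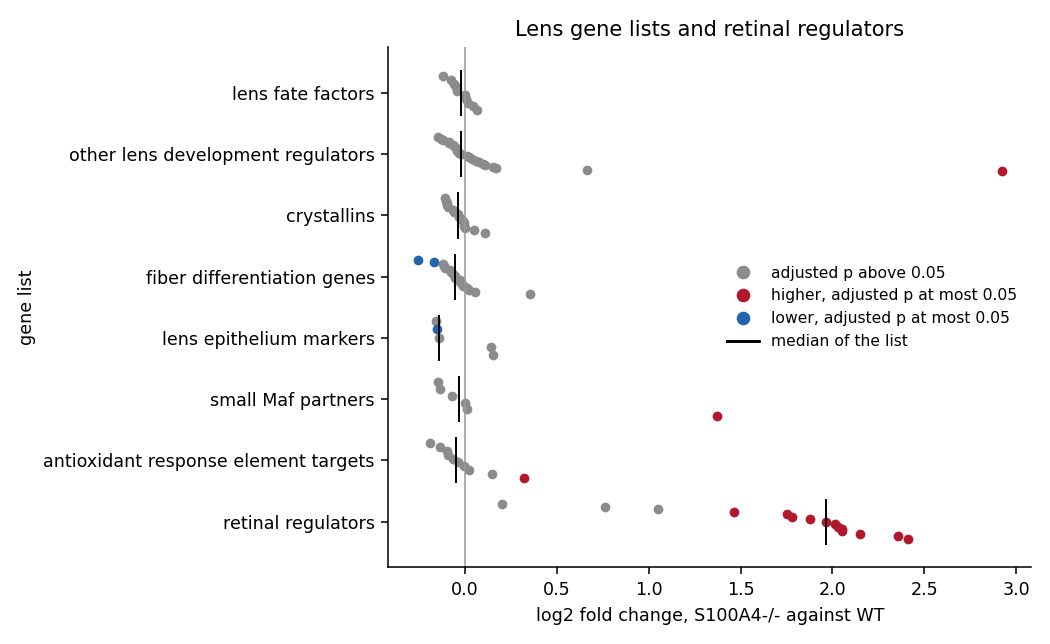
Log2 fold change of S100A4-/- against WT (x axis) of every tested gene in 8 lists, 1 point a gene; red and blue points passed an adjusted p of 0.05 and black bars are list medians. The lens fate factors cluster about zero, and the medians of these and the other lens lists ran from -0.14 to -0.02. *Tfap2b*, among the other lens development regulators, is a red point at 2.92. The red points among the retinal regulators are genes the study had itself listed as higher in these libraries.

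Finally, the listed genes with the most similar profile to each factor were found by the distance between log2 values over the 4 libraries, after centering on the WT mean, among 167 genes. *Prox1* lay nearest to *Lgsn* (distance 0.012 on the log2 scale), *Mip* (0.033) and *Gclm* (0.035). *Maf* lay nearest to *Mab21l1* (0.023), *Sox2* (0.024) and *Me1* (0.028), and *Six3* to *Cryab* (0.029), *Bfsp1* (0.031) and *Cryba1* (0.032). *Sox1* lay nearest to *Crybb2* (0.024), and *Foxe3* to *Caprin2* (0.029). The nearest genes to *Hsf4* were *Crybb1* (0.075), *Dnase2b* (0.076) and *Cryba4* (0.078). *Pitx3* lay nearest to *Smarca4* (0.05), *Mafg* to *Hey1* (0.044), *Pax6* to *Aqp4* (0.055) and *Mafk* to *Pbx2* (0.094). With 4 libraries and changes this small, likeness of profile is a description of these libraries.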

How the data were processed

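The authors used Trim Galore for trimming, STAR for mapping to mouse (mm10 per the labels, GRCm38v73 in the methods), HTSeq for counting and DESeq2 for normalization, and retained genes reaching 10 reads in a library; versions are not given in the sources used here. The deposited signal values are these counts divided by 1 size factor per library. In each library 100% of values were whole multiples of 1 read (tolerance 0.01 read; 1 read was worth 0.856 and 1.01 in S100A4-/- and 1.04 and 1.09 in WT), so reads were recovered. A gene with 0 reads is bounded by 3 reads, counting error only. Columns without a sample numbered 0.

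Null and WT libraries were tested against each other in limma 3.58.1 (variance trend, R 4.3.3) on log2(value + 1) over 14780 genes, each reaching a value of 10 in 1 or more libraries (144 left out). Fold changes are on that scale, which understates those of low genes. Benjamini-Hochberg adjustment covered every gene tested. "Rose" and "fell" mean an adjusted p of at most 0.05 at any fold. Alternatives were pseudocounts of 0.5 and 5, other filters and scalings, no variance trend, edgeR 4.0.16 and DESeq2 1.42.0 on recovered reads, a replicate block and each library left out. Scripts were tested on simulated data.

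Symbols were matched for 14782 of 14924 genes. Coordinates and exon lengths are those of GENCODE M21 (GRCm38), not of the GRCm38v73 annotation in the authors' methods. The members and lists were chosen with earlier results of these data known. Genes named were all 10 members, from each list at most the 4 called genes with the largest change and the 2 most abundant, *S100a4* and *S100a5*, and the 3 nearest profiles, beside the crystallins whose windows are printed, genes not analysed here and those said to be chosen after their values were seen. An item left out of the lists is not reported here.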

Additional observations from a re-analysis of the deposited data

How the results depend on the processing

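Over 15 alternatives, the 10 lens fate factors gave 150 log2 fold changes, from -0.13 to 0.14, of which 143 kept their direction and call. The labels do not say whether same-numbered libraries share a litter or day. Their deviations had a correlation of 0.0119 over 14780 genes, which cannot settle whether they are paired. With the replicate block 1 of the 10, *Prox1*, was called (adjusted p = 0.0273), the only call of a lens fate factor in any alternative. The block called 982 genes higher (6.64%) and 348 lower (2.35%). It called 4 fiber differentiation genes, 3 lens epithelium markers and 1 antioxidant response element target lower. Called higher under it were 1 lens epithelium marker and 2 endothelial markers. Direction reversed in 6 values, each with 1 library left out, over which the log2 fold change ran from -0.0064 (without WT replicate 2) to 0.0353 for *Sox1*, -0.0796 (without S100A4-/- replicate 2; -0.0092 without WT replicate 1) to 0.0874 for *Hsf4*, -0.0463 (without WT replicate 1; -0.0365 without S100A4-/- replicate 1) to 0.0477 for *Mafg* and -0.0549 (without WT replicate 1) to 0.14 for *Mafk*. *Six3os1* ran from -0.0359 (without WT replicate 1; -0.0252 without S100A4-/- replicate 1) to 0.0635.

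Genes called over the whole table numbered 831 higher and 197 lower at any fold and 539 higher and 11 lower at 2-fold. With a mean value of at least 50 they were 549 higher at any fold, and 281 higher and 6 lower at 2-fold; without the variance trend, 179 higher and 8 lower, and 174 higher and 7 lower. Equal totals gave 55 lower at any fold, quantile normalization 23 lower at 2-fold, and DESeq2 90 lower at any fold and 6 lower at 2-fold. Leaving out 1 library gave 218 to 803 higher and 31 to 111 lower at any fold, 168 to 546 higher and 4 to 13 lower at 2-fold, and 0 of the 10 factors under either rule; the lowest of each range came without S100A4-/- replicate 1. Causes were not tested. With 2 pools a group, precision is given by the 95% interval of each factor, the widest being that of *Mafk*, the gene with the fewest reads.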
